A study of Rattus norvegicus with 9 samples.

Results

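The complement and coagulation factors described here were a list of 39 genes of the plasma cascades that attack microbes, form clots and dissolve them, with the serpin inhibitors left out. Each gene was represented by the array row that carried its symbol alone and had the highest mean, and 33 of the 39 had such a row, out of 14497 genes measured in all. The 33 comprised 15 complement genes and 18 genes of coagulation, anticoagulation and fibrinolysis. C2 and Cfb shared a row, as did C4a and C4b, and these 4 genes are given no value because their signals cannot be separated. C5 and F9 were not analysed here. No member was lost to a filter on dim values, since none was applied.

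The RNA came from liver cells of F344 rats, with no treatment or genetic change named in the labels, and each of 9 cell preparations was hybridised to its own Affymetrix Rat ST 1.0 array. Adult hepatocytes (3 arrays) were released from livers of rats aged 5 to 6 weeks by perfusion and a collagenase digestion. Fetal cells came from embryonic day 19 livers digested with collagenase and purified on magnetic columns with antibodies to leucine aminopeptidase, a surface enzyme of hepatic cells, and to OC.2, called a ductal marker by the submitters. By their titles, 3 arrays held cells with leucine aminopeptidase and without OC.2 (OC.2- cells) and 3 held cells with both antigens (OC.2+ cells). The isolation text gives both fetal groups the same program for cells with both antigens, and the OC.2+ samples are described in short as LAP-OC2+, which leaves the grouping to the titles and cell type labels. The sources used here do not give sex, pooling of animals or any sorting of adult cells. The p-values from limma rest on the spread among preparations called biological replicates, pooled for each gene over the 3 groups of 3.

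Hepatocytes make most of these proteins and secrete them into plasma. Complement starts when C1r and C1s, or the mannose-binding lectins with their proteases Masp1 and Masp2, cut the early components, after which C3 is split and the terminal components assemble into a pore in the target membrane. Clotting runs as a chain of protease precursors, several of which need vitamin K to be carboxylated, and ends when thrombin, made from F2, turns fibrinogen into fibrin. Protein C and protein S slow clotting, and plasmin, made from Plg, dissolves fibrin. Many of these genes are known targets of the liver transcription factors HNF4 and C/EBP, and several are turned on late in gestation or after birth.

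Levels are log2 intensities, and differences are log2 differences ± SE or folds with 95% intervals from limma. A gene is called changed at an adjusted p under 0.05, with the adjustment made over all 14497 genes. An intensity depends on the probes of its row, so levels are compared between groups within a gene and not between single genes. Array medians are set beside dim levels as a mark of low signal. Summed marker intensities weigh bright rows most and are compared only between groups. Array medians of log2 intensity lay between 6.31 and 6.34 in adult hepatocytes, between 6.43 and 6.49 in OC.2- cells and between 6.45 and 6.47 in OC.2+ cells. Centring the arrays on their medians moved the median difference of all genes from 0.07 to -0.06 between OC.2- and adult cells and from 0.11 to -0.03 between OC.2+ and adult cells, so small differences from adult cells depend on the scaling.

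Taken as the median of the 33 genes, expression was highest in adult hepatocytes, lower in OC.2- cells and far lower in OC.2+ cells. The median log2 intensity of the genes was 11.37, 11.43 and 11.33 on the adult arrays, 10.2, 10.4 and 10.1 on the OC.2- arrays and 7.42, 7.08 and 7.36 on the OC.2+ arrays. The 3 groups did not overlap in this median. Bulk RNA cannot tell fewer cells of a type from less RNA per cell, and this holds for each difference below.

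In OC.2- cells against adult hepatocytes, 28 of the 33 genes were lower and 1, Kng1, was higher, while F2 and the 3 fibrinogen genes were not called. Over all genes tested, 20.9% were called lower and 23.7% higher in this comparison. At least 2-fold lower were 15 of the 33, where 6.58% of all genes were. The median difference of the members was -0.82, against 0.07 over all genes. All 15 complement genes were lower, with a median of -1.33. Of the 18 coagulation and fibrinolysis genes, 13 were lower, with a median over the 18 of -0.52.

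In OC.2+ against OC.2- cells all 33 genes were lower, and 18.2% of all genes tested were. At least 2-fold lower were 32 of the 33, the exception being F7, against 6.63% of all genes. The differences ran from -3.51 for Proz to -0.43 for F7, with a median of -2.61 against 0.04 over all genes. In OC.2+ cells against adult hepatocytes all 33 were lower again, where 23.4% of all genes were, and 32 were at least 2-fold lower, the exception being Kng1, where 11.1% of all genes were. This median was -3.69, against 0.11 over all genes. All 3 arrays of the lower group lay below all 3 of the other for 28 members in OC.2- against adult cells (23.2% of all genes) and for 33 between the fetal groups (20.7% of all genes). The comparisons share arrays, so the counts are not independent of each other.

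For 29 of the 33 genes the step from OC.2- to OC.2+ cells was a larger fall than that from adult to OC.2- cells. The 4 with the larger difference between adult and OC.2- cells were C1s, C9, F7 and Pros1. Their OC.2+ means were 5.76, 6.29, 6.62 and 6.33, beside array medians of 6.45 to 6.47, and the part of these low levels in the order was not tested. These counts are a description, and the size of a gene's first step against its second was not tested.

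**Figure D1:**
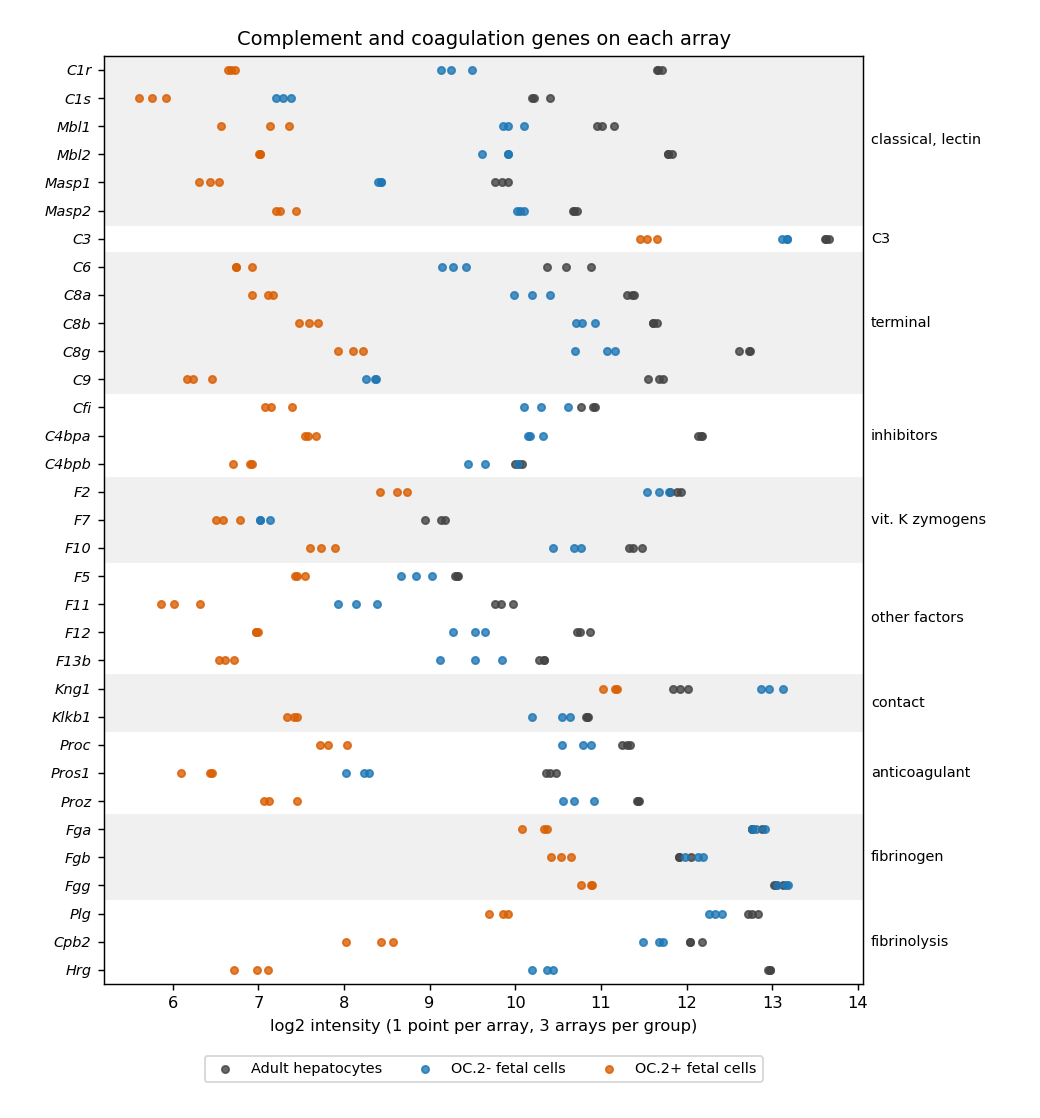
Log2 intensity (x axis) of the 33 complement and coagulation genes (rows, grouped by role and named at the right) on each of the 9 arrays, with 1 point per array and colours for adult hepatocytes, OC.2- and OC.2+ fetal cells. The OC.2+ points lie lowest for each gene, and the OC.2- points lie below the adult points for 28 genes and above them for Kng1, while for C4bpb and the fibrinogen genes the groups overlap, the sign of the fibrinogen differences changing with the scaling. Levels of different genes are not comparable with each other.

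The sequence upstream of the genes was read from RefSeq's promoter table (GRCr8), which gives 250 bases before and 50 after each gene's start. It held 27 of the 33 genes. Motifs of the liver factors were searched on both strands, and a C/EBP match can run into a CAAAG match. The C/EBP motif TTGCNNAA was present in 11 of 27 member promoters (40.7%) and in 10.6% of all 33469 promoters. The HNF4-type motif CAAAG was in 19 (70.4%) against 53.8%, and the TATA box motif TATAAA in 2 (7.41%), C6 and Fgg, against 14.2%. These are counts of letters in the window, not of bound sites, and the part of any motif in a gene's differences was not tested. In the sequences printed below, capitals mark matches to the C/EBP motif only, positions count from the gene's start with the base before it as -1, and each sequence reads in the direction of its gene.

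The start of the classical and lectin routes was lower in OC.2- than in adult cells for all 6 genes measured, with a median of -1.70. C1s and C1r, the proteases carried by the C1 complex, changed most. C1s was at 10.2, 10.22 and 10.41 on the adult arrays, 7.29, 7.38 and 7.2 on the OC.2- arrays and 5.6, 5.76 and 5.92 on the OC.2+ arrays. It fell in steps without overlap, but its OC.2+ values lay below the median of their arrays. C1s was 7.90-fold lower (6.82 to 9.17; adjusted p = 8.4e-11) in OC.2- than in adult cells and 2.90-fold lower (2.50 to 3.36; adjusted p = 4.35e-08) in OC.2+ than OC.2- cells. C1r was at 11.65, 11.67 and 11.71 in adult cells, 9.25, 9.49 and 9.13 in OC.2- cells and 6.73, 6.64 and 6.68 in OC.2+ cells. The 3 groups were again apart, and the fall to OC.2- cells was 5.23-fold (4.55 to 6.00; adjusted p = 3.19e-10), followed by a fall of 6.09-fold (5.31 to 6.99; adjusted p = 2.5e-10).

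The lectins that recognise microbial sugars, Mbl1 and Mbl2, and their proteases showed a smaller first and a larger second difference. Mbl2 was at 11.78, 11.83 and 11.78 in adult, 9.92, 9.92 and 9.61 in OC.2- and 7.02, 7.02 and 7.01 in OC.2+ cells, with no overlap. It was 27.5-fold lower (24.0 to 31.5; adjusted p = 2.25e-13) in OC.2+ than in adult cells. Mbl1 was 2.12-fold lower (1.67 to 2.71) in OC.2- than in adult cells and 7.65-fold lower (6.00 to 9.74) in OC.2+ than OC.2- cells. Its OC.2+ arrays had the widest spread of any member in that group (SD 0.41, n = 3). Masp1 and Masp2 were 2.67-fold and 1.55-fold lower in OC.2- than in adult cells and 3.98-fold and 6.79-fold lower in OC.2+ than OC.2- cells.

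C3, at which the routes of complement meet, changed less than most of the other members. Its log2 intensity was 13.62, 13.66 and 13.63 in adult cells, 13.17, 13.17 and 13.12 in OC.2- cells and 11.65, 11.54 and 11.46 in OC.2+ cells. The groups were apart, and C3 was 1.39-fold lower (1.25 to 1.56; adjusted p = 0.000155) in OC.2- than in adult cells and 3.03-fold lower (2.71 to 3.39; adjusted p = 2.48e-09) in OC.2+ than OC.2- cells.

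All 5 measured genes of the terminal pore were lower in OC.2- than in adult cells, with a median of -1.33. C9, the component that polymerises to line the pore, had the largest fall of all members in this comparison. It was at 11.68, 11.55 and 11.72 in adult, 8.36, 8.37 and 8.26 in OC.2- and 6.24, 6.17 and 6.46 in OC.2+ cells. The groups did not overlap, and the OC.2+ mean of 6.29 lay below the array medians. C9 was 9.98-fold lower (8.70 to 11.5; adjusted p = 1.44e-11) in OC.2- than in adult cells and 4.10-fold lower (3.57 to 4.70; adjusted p = 1.79e-09) in OC.2+ than OC.2- cells.

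The 3 subunits of C8, which join the pore just before C9, moved less in the first step and more in the second. C8b was at 11.61, 11.66 and 11.61 in adult, 10.78, 10.93 and 10.71 in OC.2- and 7.7, 7.47 and 7.59 in OC.2+ cells. It fell 1.77-fold (1.56 to 2.02; adjusted p = 4.56e-06) and then 9.29-fold (8.16 to 10.6; adjusted p = 4.87e-11). C8g, the lipocalin subunit, was at 12.73, 12.74 and 12.61, then 11.07, 11.17 and 10.7, then 8.22, 7.93 and 8.1 in adult, OC.2- and OC.2+ cells. Both genes were apart in all 3 groups, and C8g was 24.4-fold lower (20.4 to 29.2; adjusted p = 2.58e-12) in OC.2+ than in adult cells. C8a was 2.24-fold and C6 2.52-fold lower in OC.2- than in adult cells, and 8.73-fold and 5.58-fold lower in OC.2+ than OC.2- cells.

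Among the inhibitors of complement, Cfi, the protease that cuts C3b and C4b, was at 10.91, 10.77 and 10.93 in adult, 10.3, 10.61 and 10.1 in OC.2- and 7.15, 7.08 and 7.39 in OC.2+ cells. It was 1.44-fold lower (1.2 to 1.74; adjusted p = 0.00342) in OC.2- than in adult cells and 8.74-fold lower (7.26 to 10.5; adjusted p = 6.33e-10) in OC.2+ than OC.2- cells. The groups did not overlap.

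C4bpa and C4bpb encode the α and β chains of C4b-binding protein, a cofactor of Cfi whose β chain also carries protein S in plasma. In the RefSeq table the genes lie close together on chromosome 13 with 1 gene between them. C4bpa was at 12.13, 12.17 and 12.18 in adult, 10.17, 10.32 and 10.15 in OC.2- and 7.55, 7.58 and 7.67 in OC.2+ cells. It fell 3.87-fold (3.44 to 4.34; adjusted p = 4.14e-10) and then 6.11-fold (5.44 to 6.86; adjusted p = 8.67e-11), with no overlap. C4bpb was at 10.04, 10.08 and 10 in adult, 9.65, 10.03 and 9.45 in OC.2- and 6.9, 6.7 and 6.92 in OC.2+ cells. The 1 high OC.2- array lay within the adult range, so C4bpb was the only called member whose OC.2- and adult arrays overlapped. Its difference, -0.33 ± 0.13, was just past the threshold (adjusted p = 0.0476) and lost its call in 14 of 22 alternative settings, among them 8 of the 9 that leave out an array. Without OC.2- replicate 2, the high array, it was -0.50 (adjusted p = 0.00179). From OC.2- to OC.2+ cells C4bpb fell 7.31-fold (6.04 to 8.84; adjusted p = 1.55e-09).

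Within each array, the log2 level of C4bpa less that of C4bpb changed by -1.62 ± 0.12 (SE) from adult to OC.2- cells, and the arrays of the groups were apart. From OC.2- to OC.2+ cells the change of this difference was 0.26 ± 0.14, and the arrays overlapped. Their promoters are shown because chains of 1 protein changed unequally, and whether the motif has a part in this was not tested. C4bpa (chr13:44663422-44663721 on the minus strand) has a C/EBP match at -243, and C4bpb (chr13:44683732-44684031 on the minus strand) has none in this window.
C4bpa: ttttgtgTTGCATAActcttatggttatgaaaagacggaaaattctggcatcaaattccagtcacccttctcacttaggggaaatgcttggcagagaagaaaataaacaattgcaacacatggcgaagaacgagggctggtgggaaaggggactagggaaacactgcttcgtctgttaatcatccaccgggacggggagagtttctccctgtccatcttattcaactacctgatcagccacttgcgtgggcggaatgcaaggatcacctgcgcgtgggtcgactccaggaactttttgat
C4bpb: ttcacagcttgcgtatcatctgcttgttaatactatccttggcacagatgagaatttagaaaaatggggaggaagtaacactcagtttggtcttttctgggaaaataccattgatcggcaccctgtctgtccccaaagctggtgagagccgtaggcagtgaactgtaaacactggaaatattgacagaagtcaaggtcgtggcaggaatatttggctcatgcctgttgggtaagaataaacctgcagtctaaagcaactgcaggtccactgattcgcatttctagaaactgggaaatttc

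Among the vitamin K-dependent precursors of clotting, F2 (prothrombin) was at 11.93, 11.81 and 11.89 in adult, 11.68, 11.79 and 11.54 in OC.2- and 8.74, 8.42 and 8.62 in OC.2+ cells. The OC.2- arrays all lay just under the adult ones, but the difference of -0.21 ± 0.10 was not called (adjusted p = 0.0994). It was called under median centring (-0.34, adjusted p = 0.0187) and cyclic loess (-0.42, adjusted p = 0.000875). From OC.2- to OC.2+ cells F2 fell 8.4-fold (7.26 to 9.73; adjusted p = 1.34e-10).

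F7, which starts clotting together with tissue factor, had the opposite balance. It was at 9.18, 8.95 and 9.13 in adult, 7.02, 7.14 and 7.02 in OC.2- and 6.78, 6.5 and 6.59 in OC.2+ cells. Its large fall lay between adult and OC.2- cells (4.08-fold, 3.54 to 4.70; adjusted p = 2.03e-09), and the fall from OC.2- to OC.2+ cells, though without overlap, was the smallest of the members (1.35-fold, 1.17 to 1.56; adjusted p = 0.00219). The OC.2+ values stood little above the array medians of 6.45 to 6.47.

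F10, which F7 activates, was 1.69-fold lower (1.45 to 1.98) in OC.2- than in adult cells and 7.42-fold lower (6.35 to 8.68) in OC.2+ than OC.2- cells. In the RefSeq table F10 lies between Proz and F7 on chromosome 16. Within each array, the level of F10 less that of F7 rose by 1.27 ± 0.14 from adult to OC.2- cells and changed by -2.46 ± 0.08 from OC.2- to OC.2+ cells, and the arrays were apart in both. The promoters of these neighbours that changed unequally, F7 (chr16:83202689-83202988 on the minus strand) and F10 (chr16:83190231-83190530 on the minus strand), hold no match to the C/EBP motif in this window, and that of F7 holds CAAAG.
F7: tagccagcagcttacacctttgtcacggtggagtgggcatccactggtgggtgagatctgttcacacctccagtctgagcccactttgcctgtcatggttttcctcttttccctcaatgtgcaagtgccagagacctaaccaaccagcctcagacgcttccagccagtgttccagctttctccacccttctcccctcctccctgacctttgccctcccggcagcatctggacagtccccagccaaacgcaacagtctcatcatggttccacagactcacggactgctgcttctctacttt
F10: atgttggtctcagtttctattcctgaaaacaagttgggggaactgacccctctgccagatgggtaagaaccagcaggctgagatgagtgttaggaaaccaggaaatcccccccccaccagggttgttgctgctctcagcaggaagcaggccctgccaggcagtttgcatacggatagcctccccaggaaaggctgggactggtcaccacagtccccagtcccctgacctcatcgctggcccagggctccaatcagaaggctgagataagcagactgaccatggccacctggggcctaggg

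The other clotting factors were lower in OC.2- than in adult cells for all 4 genes, with a median of -1.06. F5, the cofactor of F10 in making thrombin, was at 9.3, 9.32 and 9.33 in adult, 8.84, 9.03 and 8.66 in OC.2- and 7.45, 7.43 and 7.55 in OC.2+ cells. It was apart in all groups and fell 1.39-fold (1.2 to 1.6; adjusted p = 0.00114) and then 2.58-fold (2.24 to 2.97; adjusted p = 8.69e-08). F11 and F12, of the contact-activated route, were 3.25-fold and 2.46-fold lower in OC.2- than in adult cells, and 4.26-fold and 5.68-fold lower in OC.2+ than OC.2- cells, with the 3 OC.2+ values of F11 all below the array median. F13b, the carrier subunit of the fibrin-crosslinking factor XIII, fell 1.77-fold and then 7.30-fold, and had the widest spread of the members over the OC.2- arrays (SD 0.36, n = 3).

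Kng1, the kininogen that carries prekallikrein and yields bradykinin, was the only member called higher in OC.2- than in adult cells. It was at 12.02, 11.84 and 11.92 in adult, 12.96, 13.13 and 12.87 in OC.2- and 11.19, 11.03 and 11.16 in OC.2+ cells. The groups did not overlap, with OC.2- cells highest and OC.2+ cells lowest. Kng1 was 2.08-fold higher (1.82 to 2.38; adjusted p = 6.4e-07) in OC.2- than in adult cells, 3.62-fold lower (3.16 to 4.14; adjusted p = 3.33e-09) in OC.2+ than OC.2- cells and 1.74-fold lower (1.52 to 1.99; adjusted p = 4.97e-06) in OC.2+ than in adult cells. The gene has a second, dimmer row, at 6.05 to 7.54 in adult, 8.18 to 8.55 in OC.2- and 7.02 to 7.13 in OC.2+ cells. With the mean of both rows the difference of OC.2+ from adult cells was -0.31 and no longer called (adjusted p = 0.0907).

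The rat has further kininogen genes next to Kng1, and near-identical copies can share signal on an array, so the row of Kng1 may not measure that gene alone. Kng2 and Kng2l1, looked at after the values of Kng1 were seen, had the same order of groups. Kng2 was at 11.79 ± 0.14 in adult, 12.63 ± 0.05 in OC.2- and 10.8 ± 0.12 in OC.2+ cells (SD, n = 3), and Kng2l1 at 11.78 ± 0.05, 12.31 ± 0.18 and 9.51 ± 0.25. Kng2 was 1.79-fold (adjusted p = 8.15e-06) and Kng2l1 1.44-fold (adjusted p = 0.00336) higher in OC.2- than in adult cells. The promoter of Kng1 (chr11:91340099-91340398 on the minus strand), shown because the gene went against the other members, has a C/EBP match at -214.
Kng1: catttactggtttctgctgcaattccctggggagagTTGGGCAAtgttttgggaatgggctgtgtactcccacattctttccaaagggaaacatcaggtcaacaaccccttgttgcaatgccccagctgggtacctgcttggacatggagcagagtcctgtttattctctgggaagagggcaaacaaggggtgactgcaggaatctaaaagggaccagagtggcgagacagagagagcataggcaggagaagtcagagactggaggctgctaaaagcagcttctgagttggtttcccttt

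Klkb1, the prekallikrein that Kng1 carries, was 1.30-fold lower (1.11 to 1.52; adjusted p = 0.00965) in OC.2- than in adult cells, a call lost under renewed quantile normalization (-0.15, adjusted p = 0.205), and 8.35-fold lower (7.14 to 9.76; adjusted p = 1.92e-10) in OC.2+ than OC.2- cells. It adjoins F11, a related protease, on chromosome 16. Within each array its level less that of F11 rose by 1.32 ± 0.08 from adult to OC.2- cells, with the arrays apart.

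All 3 vitamin K-dependent anticoagulants were lower in each fetal group. Pros1, protein S, was at 10.41, 10.36 and 10.47 in adult, 8.23, 8.29 and 8.02 in OC.2- and 6.44, 6.1 and 6.46 in OC.2+ cells. It fell 4.69-fold (3.99 to 5.51; adjusted p = 2.76e-09) and then 3.60-fold (3.06 to 4.23; adjusted p = 1.71e-08), to an OC.2+ mean of 6.33 that lay below the array medians. Proz, protein Z, a cofactor in the inhibition of F10, was at 11.42, 11.43 and 11.44 in adult, 10.69, 10.92 and 10.56 in OC.2- and 7.45, 7.07 and 7.12 in OC.2+ cells. The groups were apart for both genes. Proz had the largest fall of the members from OC.2- to OC.2+ cells, 11.4-fold (9.60 to 13.5; adjusted p = 1.58e-10), after a fall of 1.63-fold from adult cells. Proc, protein C, was 1.47-fold lower in OC.2- than in adult cells and 7.38-fold lower in OC.2+ than OC.2- cells.

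The 3 chains of fibrinogen, the clot protein, were not called between OC.2- and adult cells, and the sign of each difference depended on the scaling. Fga was at 12.88, 12.76 and 12.76 in adult, 12.81, 12.92 and 12.76 in OC.2- and 10.37, 10.08 and 10.34 in OC.2+ cells. Fgb was at 12.05, 11.91 and 11.91, then 12.13, 12.19 and 11.98, then 10.65, 10.42 and 10.53 in the same order of groups. Fgg was at 13.13, 13.04 and 13.02, then 13.16, 13.19 and 13.06, then 10.9, 10.88 and 10.77. Adult and OC.2- arrays overlapped for each chain, and the OC.2+ arrays lay far below both.

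Between OC.2- and adult cells the fold of Fga was 1.02 (0.886 to 1.17; adjusted p = 0.843), that of Fgb 1.10 (0.964 to 1.26; adjusted p = 0.221) and that of Fgg 1.05 (0.939 to 1.18; adjusted p = 0.456), each on the higher side as deposited. Under cyclic loess the differences became -0.30 for Fga and -0.29 for Fgg, both then called, and -0.14 for Fgb, which was not called. Under renewed quantile normalization Fgb was called higher (0.22, adjusted p = 0.0369). From OC.2- to OC.2+ cells Fga fell 5.90-fold (5.13 to 6.78; adjusted p = 2.89e-10), Fgb 2.96-fold (2.59 to 3.38; adjusted p = 1.38e-08) and Fgg 4.88-fold (4.35 to 5.47; adjusted p = 1.9e-10).

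The genes of the 3 chains follow each other on chromosome 2 in the RefSeq table, in the order Fgg, Fga, Fgb, and the chains enter the protein in equal numbers. They did not fall equally in OC.2+ cells: within each array the level of Fga less that of Fgb changed by -0.99 ± 0.05 from OC.2- to OC.2+ cells, with the arrays apart, while from adult to OC.2- cells the change was -0.11 ± 0.03. Promoters of the chains are shown because these neighbours all fell from OC.2- to OC.2+ cells. All 33 members did so, which means that this direction does not set the chains apart. Fga (chr2:170671919-170672218 on the plus strand; the first of its 2 entries in the table) has a C/EBP match at -144. Fgb (chr2:170700826-170701125 on the minus strand) has it at -141. Fgg (chr2:170652833-170653132 on the plus strand) has no match in this window.
Fgg: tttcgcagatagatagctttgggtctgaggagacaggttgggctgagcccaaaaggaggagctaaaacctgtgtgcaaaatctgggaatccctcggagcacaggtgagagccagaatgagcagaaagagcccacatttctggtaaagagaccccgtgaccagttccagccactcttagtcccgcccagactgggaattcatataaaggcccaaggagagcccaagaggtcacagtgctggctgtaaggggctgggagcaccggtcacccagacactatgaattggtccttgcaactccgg
Fga: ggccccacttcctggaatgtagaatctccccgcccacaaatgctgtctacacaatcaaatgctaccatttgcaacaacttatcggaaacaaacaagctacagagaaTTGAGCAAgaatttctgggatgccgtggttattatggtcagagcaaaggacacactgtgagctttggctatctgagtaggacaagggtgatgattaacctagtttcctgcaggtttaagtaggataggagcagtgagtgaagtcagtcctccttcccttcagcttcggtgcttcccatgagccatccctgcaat
Fgb: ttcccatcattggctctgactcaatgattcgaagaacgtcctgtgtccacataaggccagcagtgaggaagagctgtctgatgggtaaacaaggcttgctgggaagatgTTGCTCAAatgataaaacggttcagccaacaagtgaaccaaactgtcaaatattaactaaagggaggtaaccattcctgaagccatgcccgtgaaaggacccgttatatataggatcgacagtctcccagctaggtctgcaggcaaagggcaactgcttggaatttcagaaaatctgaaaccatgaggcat

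Genes of clot removal and its control were lower in OC.2- than in adult cells for all 3 members. Plg, plasminogen, was 1.36-fold lower (1.19 to 1.54; adjusted p = 0.000858) in OC.2- than in adult cells and 5.69-fold lower (5.01 to 6.46; adjusted p = 1.9e-10) in OC.2+ than OC.2- cells. Cpb2, whose product protects fibrin from plasmin, was at 12.18, 12.04 and 12.04 in adult, 11.68, 11.72 and 11.49 in OC.2- and 8.57, 8.02 and 8.43 in OC.2+ cells. It was apart in all groups and fell 1.37-fold (1.13 to 1.66; adjusted p = 0.0106) and then 9.78-fold (8.08 to 11.8; adjusted p = 4.98e-10).

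Hrg, a histidine-rich plasma glycoprotein that binds plasminogen and heparin, spanned the widest range of the 33 genes. It was at 12.97, 12.95 and 12.97 in adult, 10.37, 10.44 and 10.19 in OC.2- and 7.11, 6.71 and 6.98 in OC.2+ cells. The groups were far apart. Hrg was 6.17-fold lower (5.27 to 7.21; adjusted p = 4.38e-10) in OC.2- than in adult cells, 10.6-fold lower (9.04 to 12.4; adjusted p = 1.14e-10) in OC.2+ than OC.2- cells and 65.2-fold lower (55.7 to 76.3; adjusted p = 1.45e-13) in OC.2+ than in adult cells. It lies near Kng1 on chromosome 11, with 3 genes between them. The level of Kng1 less that of Hrg rose by 3.68 ± 0.06 from adult to OC.2- cells within each array.

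**Figure D2:**
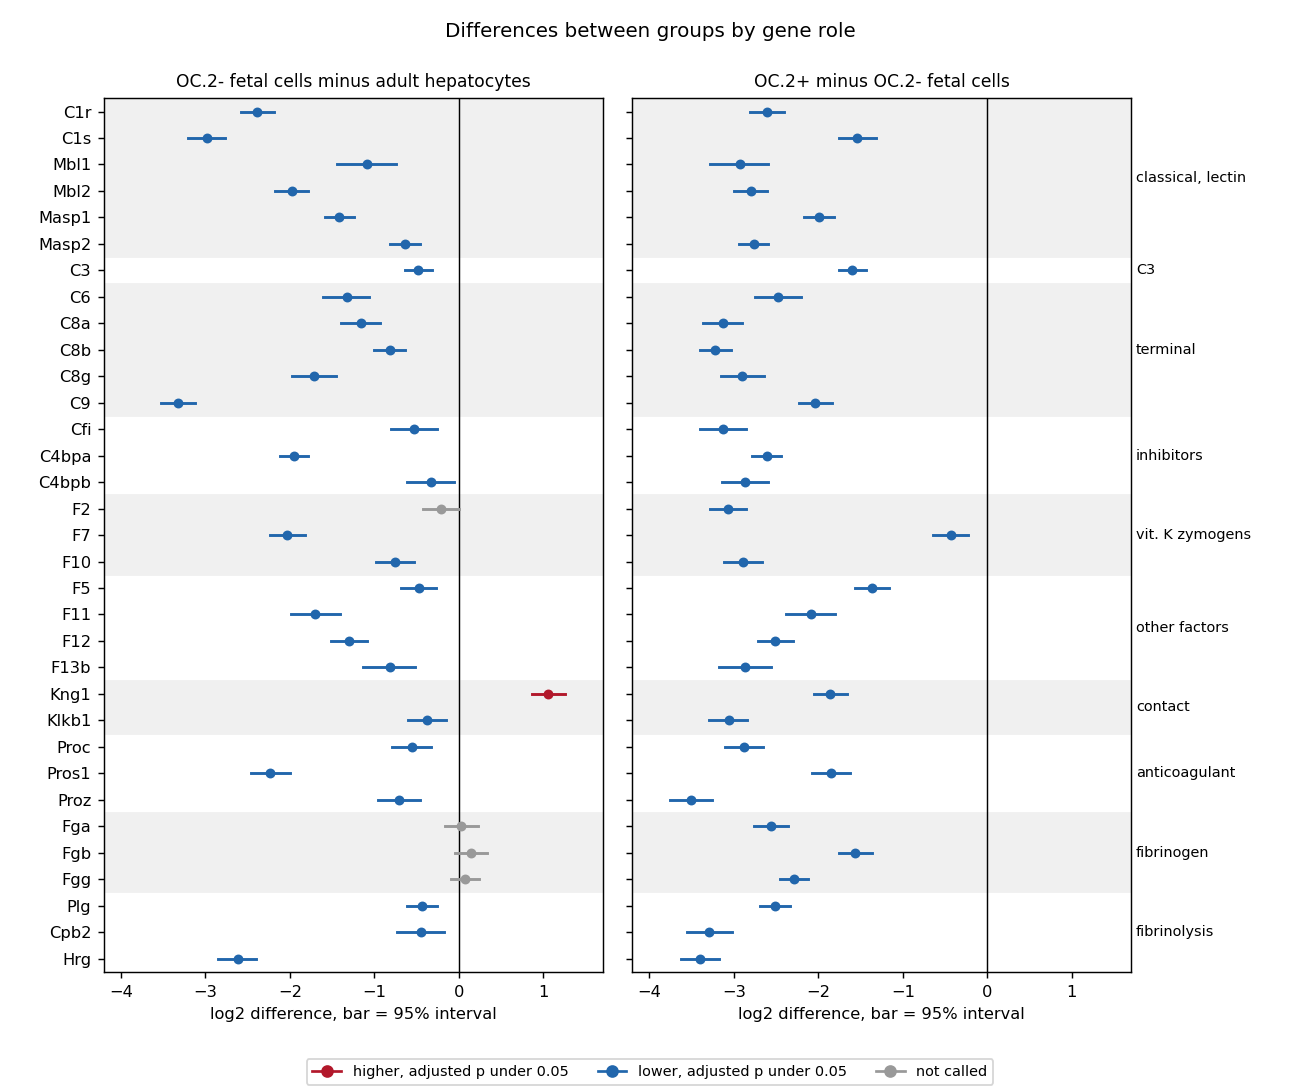
Log2 difference (x axis) of each of the 33 genes (rows, by role) for OC.2- cells minus adult hepatocytes (left) and OC.2+ minus OC.2- cells (right), with limma's 95% intervals as bars and colours for genes called lower, called higher and not called. On the left 28 genes lie below 0 and are called, Kng1 is called above 0, and F2 and the fibrinogen genes are not called, the sign of the latter changing with the scaling. On the right all 33 lie below 0, from -3.51 to -0.43.

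Of all 9 neighbouring pairs among the members, the within-array difference between the pair separated the groups for 7 pairs in OC.2- against adult cells, 7 in OC.2+ against OC.2- cells and 8 in OC.2+ against adult cells. Each such separation has an exact permutation p of 0.1 (2-sided), the smallest that 3 arrays against 3 allow, and 0.123 after Benjamini-Hochberg adjustment over the 27 comparisons, so none could pass 0.05. How often pairs of other genes separate the groups in this way was not computed. The counts therefore cannot set neighbouring members apart from other pairs. Proz and F10 changed by like amounts from adult to OC.2- cells (difference 0.05 ± 0.06, exact permutation p = 0.5), and C8b and C8a from OC.2- to OC.2+ cells (-0.09 ± 0.06, exact permutation p = 0.3). C1r and C1s differed by 0.60 ± 0.08 in the first of these steps and by -1.07 ± 0.12 in the second, where the OC.2+ values of C1s lay below the array medians, the part of which in this difference was not tested.

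**Figure D3:**
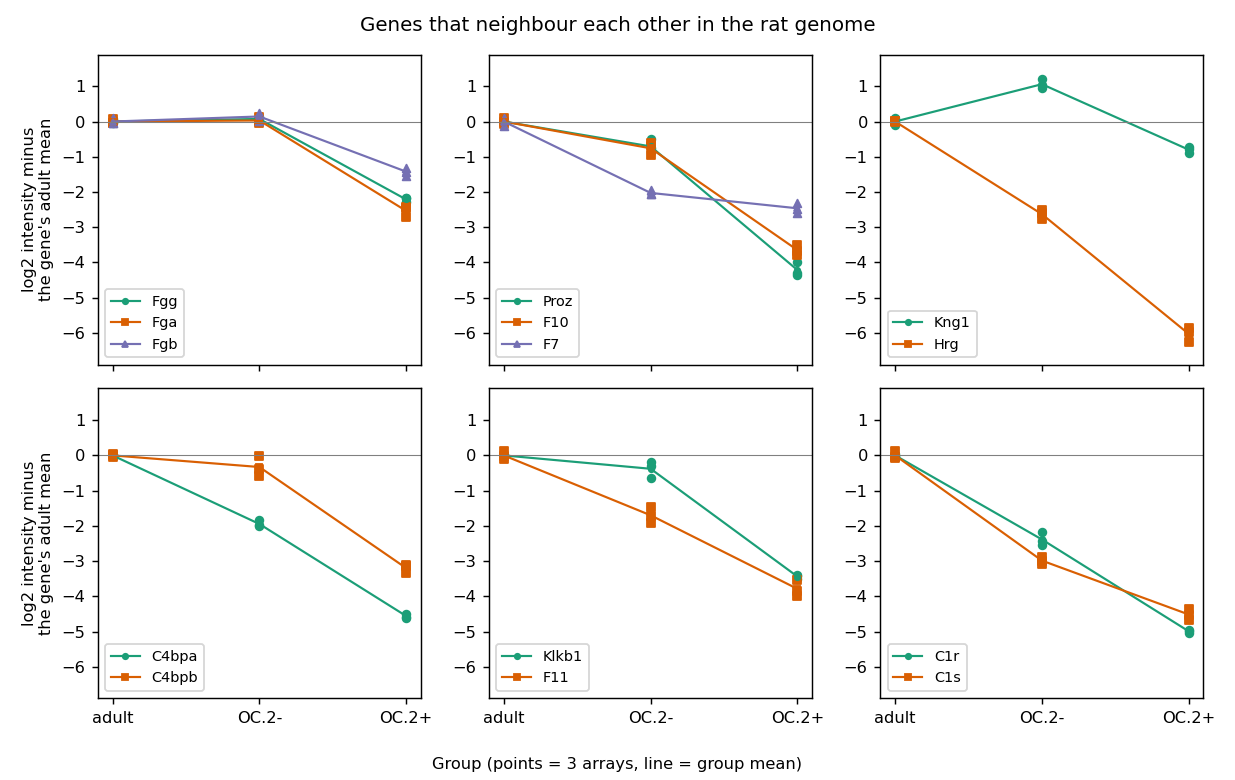
Log2 intensity minus the gene's mean over the adult arrays (y axis) in adult, OC.2- and OC.2+ cells (x axis) for 6 sets of genes that lie next to or near each other, with points for the 3 arrays of a group and lines joining group means. The order along the x axis is not a time course. The fibrinogen genes stay together at 0 in OC.2- cells, with signs that change with the scaling, while Kng1 lies at 1.06 and Hrg at -2.62.

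Beyond the members, other genes of complement were split in direction. Of 29 other complement genes measured, 15 were higher and 7 lower in OC.2- against adult cells, where 23.7% of all genes were higher and 20.9% lower. Between the fetal groups 6 were higher and 9 lower in OC.2+ cells, where 20.3% of all genes were higher and 18.2% lower, with medians of 0.34 and -0.03. The C1q chain genes C1qa, C1qb and C1qc were lower in OC.2+ cells. They differed by -0.48, -0.68 and -0.56 (adjusted p = 0.0227, 0.00374 and 0.00476). Those lower in OC.2+ cells also included plasma proteins that hepatocytes secrete. Serping1, the inhibitor of C1r and C1s, was 7.09-fold lower, Vtn (vitronectin), which blocks pore insertion, 7.08-fold and Clu (clusterin) 3.94-fold. Those higher included genes of white cells and cell surfaces. Fcnb, a ficolin of granulocytes and monocytes, was 29.5-fold higher (25.5 to 34.0; adjusted p = 2.22e-12), Itgb2, a chain of the complement receptors on leukocytes, 3.76-fold and Cd55, which protects cells from complement, 3.60-fold. In OC.2- against adult cells the C1q chain gene C1qb, expressed by macrophages, was 3.16-fold higher (2.49 to 4.02; adjusted p = 2.04e-06), and 8 of 11 macrophage markers, a list that shares C1qa, C1qb, C1qc and Vsig4 with this one, were higher and 1, Vsig4, was lower (2.24-fold, adjusted p = 4.42e-05).

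Other coagulation genes were likewise split. Of 19 measured, 8 were higher and 2 lower in OC.2- against adult cells, where 23.7% of all genes were higher and 20.9% lower. OC.2+ against OC.2- cells gave 7 each way, where 20.3% of all genes were higher and 18.2% lower. The same shares stand beside the counts of the lists that follow. Fgl1, a fibrinogen-like protein of hepatocytes, was 12.7-fold lower (10.4 to 15.4; adjusted p = 1.61e-10) in OC.2- than in adult cells, and F2r, a thrombin receptor, 6.97-fold higher. Between the fetal groups F13a1, the enzyme subunit of factor XIII made in platelets and macrophages, was 5.68-fold higher (4.75 to 6.79) in OC.2+ cells, while its plasma carrier F13b fell. The platelet receptor genes Gp1ba and Gp9 were 2.48-fold and 1.95-fold higher. These 3 genes also stand on the list of 7 megakaryocyte markers, of which 6 were higher in OC.2+ cells, with a summed intensity of 2073 to 2247 against 832 to 868. Habp2, a plasma protease, and Lman1, which ferries F5 and F8 out of the endoplasmic reticulum, were 7.27-fold and 4.70-fold lower.

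Plasma protease inhibitors, most of them serpins, were left out of the list of members. Of 13 measured, Serping1 again among them, 12 were lower in OC.2+ than OC.2- cells (median -2.54, beside -2.61 for the members), among them Serpind1 (heparin cofactor II) at 8.61-fold and Serpinf2 (α2-antiplasmin) at 8.0-fold. In OC.2- against adult cells 7 were lower and 3 higher (median -0.35). A2m, the rat's fetal and acute phase macroglobulin, was 70.2-fold higher (61.0 to 80.9; adjusted p = 1.03e-13) in OC.2- than in adult cells. A list of 10 genes was drawn up for fibrinolysis outside the members. It included Enpp2, which has no established part there, and Tfpi2, also counted with the other coagulation genes. Of the 10, 7 were higher and 3, with Enpp2 among them, lower in OC.2- against adult cells. Anxa2, a cell-surface receptor for plasminogen, was higher by 22.1-fold. Between the fetal groups 8 of them were lower in OC.2+ cells and 1, the urokinase receptor gene Plaur, was higher (2.92-fold).

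The vitamin K cycle, which carboxylates F2, F7, F10 and the anticoagulants, was nearly level between OC.2- and adult cells, with 1 of 6 genes higher and 1 lower (median -0.07). Against OC.2- cells, 5 of the 6 were lower in OC.2+ cells, led by Vkorc1, the reductase that warfarin blocks, at 5.51-fold (4.53 to 6.70; adjusted p = 7.33e-09), and Ggcx, the carboxylase, at 2.91-fold (2.52 to 3.36; adjusted p = 3.29e-08). The 5 include Dhrs1 (1.67-fold lower), which was listed with the cycle but has no established part in it. Of 11 genes of acute phase signalling, which raises fibrinogen and complement in inflammation, 3 were higher and 4 lower in OC.2- against adult cells. These counts were not far from the shares of all genes, 23.7% higher and 20.9% lower. Socs3, a feedback inhibitor of interleukin-6 signalling, was 4.25-fold higher (3.54 to 5.09; adjusted p = 1.58e-08). Cebpb, also counted with the liver transcription factors, was 2.36-fold lower (1.91 to 2.91; adjusted p = 1e-05). Against OC.2- cells, 9 of the 11 were lower in OC.2+ cells, Il6st, the shared receptor chain gp130, by 5.96-fold.

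Most liver transcription factors were lower along the same order of groups. Of 19 measured, 15 were lower and 2 higher in OC.2- than in adult cells (median -1.13), and 16 lower and 0 higher in OC.2+ than OC.2- cells (median -1.43). The 2 higher ones were Ppara (1.83-fold, adjusted p = 0.000121) and Gata4 (1.58-fold, adjusted p = 0.00036). Hnf4a was 2.20-fold lower (1.91 to 2.55; adjusted p = 6.26e-07) in the first comparison and 6.06-fold lower (5.24 to 7.01; adjusted p = 3.63e-10) in the second. Cebpa was 2.20-fold and 2.58-fold lower. Whether these factors have a part in the members' levels was not tested.

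**Figure D4:**
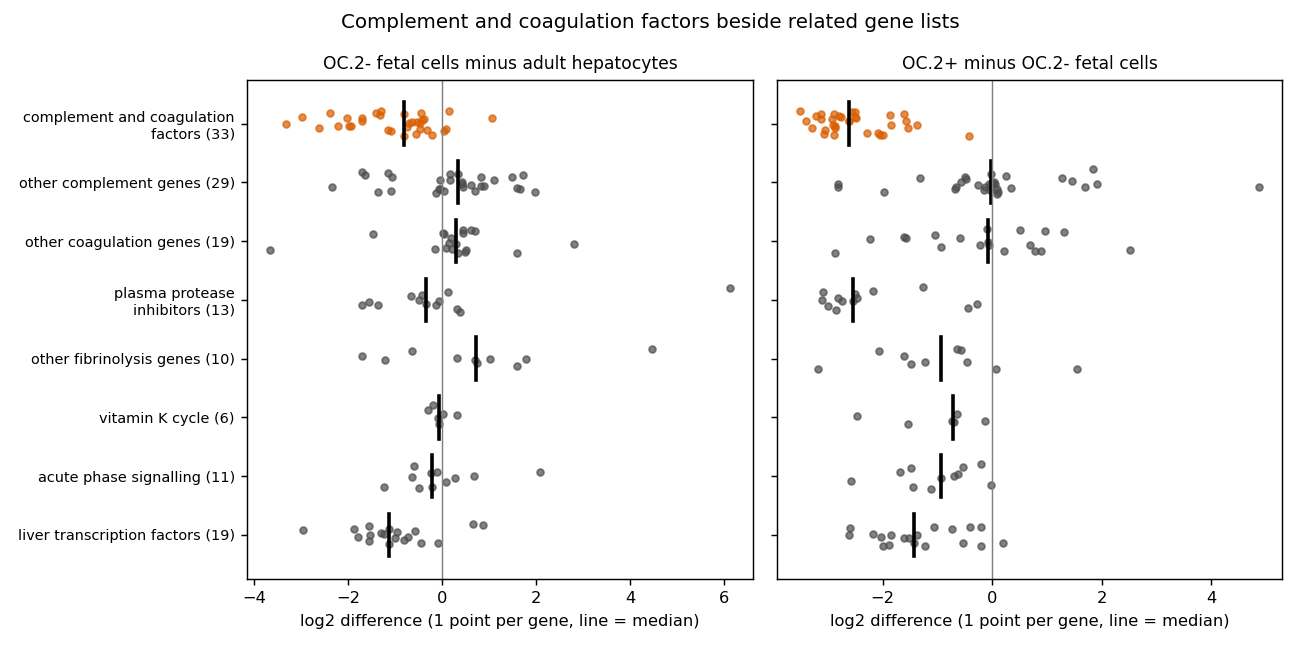
Log2 differences (x axis) of single genes, 1 point per gene, for the 33 complement and coagulation factors and 7 related lists (rows, with the number measured), in OC.2- cells minus adult hepatocytes (left) and OC.2+ minus OC.2- cells (right), with a bar at each median. On the right the medians of the members (-2.61) and of the protease inhibitors (-2.54) lie far below those of the other complement genes (-0.03) and other coagulation genes (-0.07).

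Markers of other cell types moved with the groups, and their part in the differences above was not tested. The summed intensity of 12 hepatocyte markers was 100408 to 108774 in adult, 86051 to 92283 in OC.2- and 34401 to 38070 in OC.2+ cells, and all 12 were lower in OC.2+ than OC.2- cells, with a median of -2.46, beside -2.61 for the members. Alb, albumin, differed by -0.32 ± 0.08 in that comparison (adjusted p = 0.00514), with means of 14.09, 14.11 and 13.79 in adult, OC.2- and OC.2+ cells. The differences of Ahsg and Tf, also bright, were -0.99 and -1.15, and those of Ttr and Apob were -2.34 and -2.85. Whether bright rows were near saturation was not tested. The summed intensity of 12 granulocyte markers was 676 to 731, 774 to 862 and 19430 to 21957 in the same order, and 11 of the 12 were higher in OC.2+ than OC.2- cells. For 9 red cell markers it was 836 to 883, 17599 to 20297 and 32055 to 32584, with 8 higher and 1 lower in OC.2+ than OC.2- cells. Markers of sinusoidal endothelium summed to 911 to 1176, 3565 to 4774 and 687 to 708, and 7 of the 8 were lower in OC.2+ than OC.2- cells (median -1.88). Stellate and mesenchymal markers summed to 1424 to 1577, 5615 to 6547 and 4062 to 4839, with 9 of 10 higher in OC.2- than in adult cells and 9 of 10 lower in OC.2+ than OC.2- cells (median -0.56).

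The fetal labels matched the fetal liver markers, of which 6 of 6 were higher in each fetal group than in adult cells (of all genes, 23.7% were higher in OC.2- and 32.0% in OC.2+ cells), Afp (α-fetoprotein) by 91.7-fold in OC.2- and 50.3-fold in OC.2+ cells. These 6 were lower in OC.2+ than OC.2- cells, with summed intensities of 12373 to 12925 against 35157 to 37527. Of 7 bile duct markers, 1 was higher and 1 lower in OC.2+ than OC.2- cells, and their summed intensity was 565 to 720 in OC.2- and 631 to 654 in OC.2+ cells, so they did not set the OC.2+ cells apart as ductal. No row of the array reads 0, and no detection call was available, so a marker's absence cannot be shown.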

How the data were processed

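RNA of 3 adult, 3 OC.2- and 3 OC.2+ preparations was measured. The authors deposited a table of 28826 rows of linear intensities; the submitters' processing notes name Partek 6.6 and RMA, without role or order. RMA as usually run evens out array distributions and compresses dim genes. The sources used here do not give the build or annotation. A platform annotation gave 1 symbol to 15209 rows, several to 306 and none to 13311; 494 of the 14497 genes had several rows. Symbols were checked against RefSeq (GRCr8; 15178 found, 0 changed).

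Log2 intensities entered 1 fit of limma 3.58.1 in R 4.3.3 (lmFit, eBayes) on all 9 arrays (6 residual degrees of freedom, 2-sided, Benjamini-Hochberg adjustment), with no dim filter. In simulated data with normal noise the fit recovered 63 to 67% of log2 changes of 0.5, depending on the comparison. Of log2 changes of 1 it recovered 95 to 99%. It also called 6 to 11 genes that had not been changed. The members, gene lists and motifs were chosen with earlier results of these data known. Values on each array are given for the 5 highest and 5 lowest differences of each comparison. They are also given for members not called or called against the majority. C4bpb was added for its overlap, and C4bpa, the other chain, with it. From each pathway list up to 3 called genes each way could be named. A further motif and gene are not reported here. Alternatives covered 3 scalings, 2 dim filters, row choice, variance, array weights, groups fitted, a replicate block, the threshold, an added 16 before log2, and each array left out. The number of arrays limits the precision.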

Additional observations from a re-analysis of the deposited data

Results flagged for a closer look

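Kng1 stands out because its fetal groups lay on opposite sides of adult hepatocytes: all 3 OC.2- arrays were above all 3 adult arrays, and all 3 OC.2+ arrays were below them. The log2 difference of OC.2+ from OC.2- cells was -1.86 ± 0.09 (adjusted p = 3.33e-09, limma). These are values of the gene's brighter row. On its dimmer row the OC.2+ arrays (7.02 to 7.13) lay within the adult range (6.05 to 7.54), and with the mean of both rows the difference of OC.2+ from adult cells was -0.31 and not called (adjusted p = 0.0907).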

How the results depend on the processing

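Counts of members called stayed within 1.5 times the reported ones under all alternatives run, and all 33 members stayed lower in OC.2+ than OC.2- cells. Of the values of single members under the alternatives, 2151 kept direction and call, 17 lost a call, 3 gained one with the same sign and 7 changed sign, of which Fga and Fgg under cyclic loess were then also called. The median of OC.2- minus adult moved to -0.60 under quantile normalization, was -0.95 under median centring and -0.90 under cyclic loess, and ranged from -0.89 to -0.66 with an array left out. For OC.2+ minus adult it moved to -3.55 under quantile normalization and -3.52 with 16 added, was -3.83 under median centring and -3.82 under cyclic loess, and ranged from -3.73 to -3.60 with an array left out. For OC.2+ minus OC.2- that range was -2.69 to -2.55. The sign changes were all in fibrinogen genes between OC.2- and adult cells: Fgg to -0.0042 under quantile normalization, Fga to -0.10 and Fgg to -0.05 under median centring, Fga to -0.30, Fgb to -0.14 and Fgg to -0.29 under cyclic loess, and Fga to -0.02 without OC.2- replicate 2 (range -0.02 to 0.07 with an array left out). The cause was not tested. Cpb2 lost its call between OC.2- and adult cells at a threshold of 0.01. Deviations from the group means correlated at -0.226 to 0.106 between same-numbered samples of 2 groups and at -0.16 to 0.285 between differently numbered ones. With 3 arrays a group, these correlations cannot show whether samples are paired. With the number as a replicate block, 28, 33 and 33 members were called for OC.2- minus adult, OC.2+ minus OC.2- and OC.2+ minus adult, C4bpb being lost. Differences within neighbouring pairs kept their sign in all 22 alternatives, except Fgg less Fga between OC.2- and adult cells, which changed sign in 1. Depth is not defined for arrays. In OC.2+ cells C1s and F11 lay below the array medians on all 3 arrays, and C9, Pros1 and Masp1 had means below them (6.29, 6.33 and 6.43 against 6.45 to 6.47). The part of this in the size of their falls was not tested.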
